A study of Mus musculus with 16 samples.

Results

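The respiratory chain subunits described here are 39 nuclear genes for structural proteins of the mitochondrial oxidative phosphorylation complexes, 22 of complex I, 7 of complex III, 9 of complex IV and 1 of complex V. They were taken as a named list and found on the array through the RefSeq accession of each probe, and they make up 39 of the 21368 genes that could be named. Electrons from NADH enter the chain at complex I, pass through complex III and cytochrome c and reach oxygen at complex IV, and the proton gradient built on the way drives the ATP synthase, complex V. The mitochondrial genome encodes a small core of these complexes, and the other subunits are nuclear gene products that are imported and assembled in fixed proportions. Neurons depend heavily on this pathway, whereas cultured astrocytes run much of their glucose use through glycolysis.

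Expression was measured on 16 one-colour arrays of primary C57BL/6 mouse cortical cultures, 4 arrays in each of 4 groups. The groups were astrocytes with 1 nM recombinant secreted Klotho, astrocytes with vehicle, neurons with 1 nM Klotho and neurons with vehicle, each exposed for 24 h, and the vehicle was phosphate-buffered saline. Klotho is an ageing-related protein, and its secreted form circulates in blood and cerebrospinal fluid. Neurons came from cortex at embryonic day 16 and were treated at day 14 in vitro; the astrocyte protocol takes pups of postnatal day 0 to 5 and states over 98% purity after 15 h of shaking, although the astrocyte labels also carry embryonic day 16. Nothing in the annotation tells if arrays within a group represent different cultures, and the p-values therefore rest on a spread that may be technical. Levels are log2 processed intensity minus the array's 75th percentile, so a level of 0 is that percentile, and all changes are differences of log2 levels from limma fits across all measured transcripts. Levels of different genes were not compared, because probes differ in brightness.

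Between 57.5% and 67.3% of spots were well above background on each array, and no spot was saturated. The number of arrays limits the precision. Cell type labels were checked on marker lists: 11 of 12 neuron markers were lower and 7 of 10 astrocyte markers higher in astrocyte control than in neuron control arrays, and 9 of 10 microglia markers and 9 of 10 inflammatory genes were also higher there. The summed linear level of the microglia list was 138 to 242 in astrocyte control and 33.4 to 38.2 in neuron control arrays, in units of the array's 75th percentile. The neuron list summed to 31.8 to 103 in astrocyte control and 463 to 610 in neuron control arrays, and its members Nefl and Slc17a7 were above background on no astrocyte control array. Of the other lists, 5 of 7 fibroblast and meningeal genes were higher and 2 lower there, 6 of 10 genes of the oligodendrocyte lineage were lower, and of 9 liver genes tested 7 were lower and 1 higher. Their part in the subunit values below was not tested. Cell type coincided with slide and scan session, so these cannot be told apart. The deposit assigns the astrocyte arrays to treatments in 2 ways: 6 of the 8 astrocyte columns of the deposited value table hold the signal of another sample's scanner file, 4 of them of the other treatment. Groups follow the scanner files below, and subunit counts and medians under the other assignment are given with the comparisons they change. Values of the other gene lists are given by the scanner files alone.

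Promoter sequences are shown for 6 genes with levels given below. Of these, 4 are subunits picked because they hold a binding motif of a factor known to drive nuclear respiratory genes. The other 2 are tissue isoforms of complex IV that hold neither motif. Most subunit promoters hold neither motif as well. The RefSeq promoter table of build GRCm38.p6 holds 31 promoters for 30 of the 39 subunits. Each run below gives the 250 bases before the start of transcription, all on the minus strand, with capitals for the core motif of NRF1, GCGCATGC, or of ETS factors, CCGGAAG, on either strand. They lie at chr2:36049339-36049588 for Ndufa8, chr5:115348959-115349208 for Cox6a1, chr7:30626115-30626364 for Cox6b1, chr11:115419920-115420169 for Atp5h, chr7:4753095-4753344 for Cox6b2 and chr7:140900447-140900696 for Cox8b.
Ndufa8: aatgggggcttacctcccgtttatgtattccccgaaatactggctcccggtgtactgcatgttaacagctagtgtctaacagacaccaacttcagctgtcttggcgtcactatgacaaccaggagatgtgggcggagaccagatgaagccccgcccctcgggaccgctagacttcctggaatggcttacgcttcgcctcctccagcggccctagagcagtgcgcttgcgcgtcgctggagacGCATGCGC
Cox6a1: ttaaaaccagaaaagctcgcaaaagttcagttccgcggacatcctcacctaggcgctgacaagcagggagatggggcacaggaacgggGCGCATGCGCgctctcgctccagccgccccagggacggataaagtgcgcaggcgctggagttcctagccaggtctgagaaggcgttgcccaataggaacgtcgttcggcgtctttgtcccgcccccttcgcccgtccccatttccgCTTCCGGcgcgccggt
Cox6b1: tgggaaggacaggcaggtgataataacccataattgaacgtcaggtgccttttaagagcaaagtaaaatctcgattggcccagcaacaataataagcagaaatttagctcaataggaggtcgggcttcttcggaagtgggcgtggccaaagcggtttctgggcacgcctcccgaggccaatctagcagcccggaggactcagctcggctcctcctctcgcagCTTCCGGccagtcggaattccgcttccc
Atp5h: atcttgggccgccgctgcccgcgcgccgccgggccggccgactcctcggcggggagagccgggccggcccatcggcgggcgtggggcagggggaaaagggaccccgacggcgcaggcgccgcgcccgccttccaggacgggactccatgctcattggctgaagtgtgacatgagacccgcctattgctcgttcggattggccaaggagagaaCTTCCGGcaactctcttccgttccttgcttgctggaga
Cox6b2: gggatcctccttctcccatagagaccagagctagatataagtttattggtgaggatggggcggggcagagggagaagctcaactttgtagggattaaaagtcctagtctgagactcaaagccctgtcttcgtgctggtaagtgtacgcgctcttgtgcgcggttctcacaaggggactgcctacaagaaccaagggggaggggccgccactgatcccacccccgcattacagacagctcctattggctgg
Cox8b: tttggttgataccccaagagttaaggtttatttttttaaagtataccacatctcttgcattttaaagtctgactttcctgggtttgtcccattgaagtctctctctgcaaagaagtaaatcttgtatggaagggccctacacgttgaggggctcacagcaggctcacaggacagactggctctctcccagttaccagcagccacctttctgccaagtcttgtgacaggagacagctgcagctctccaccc
The NRF1 core was present in 3 of the 31 subunit promoters (9.68%), those of Ndufa6, Ndufa8 and Cox6a1, against 2.26% of all 32851 promoters of the same length. The ETS core was present in 6 (19.4%), those of Atp5h, Cox6a1, Cox6b1, Ndufb6, Ndufs3 and Uqcrh, against 6.91% of all promoters. None of the 4 promoters listed for tissue isoforms held either motif (0 of 4). A match is only a run of letters in this window.

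Most respiratory chain subunits were lower in astrocytes than in neurons. All 39 subunits were above background on all 16 arrays, and in vehicle cultures all 39 had a negative change, astrocytes minus neurons, with a median of -0.88, against 57.3% of all transcripts and a median of -0.22. By limma with Benjamini-Hochberg adjustment over 25996 transcripts, 25 of the 39 fell and 0 rose, where 30.9% of all transcripts were lower and 22.3% higher; at an unadjusted p under 0.05 the count was 31, against 58.9% of transcripts. Among 5046 transcripts at least as bright as the dimmest subunit, 38.3% were lower and the median change was -0.55. The astrocyte and neuron values did not overlap for 29 subunits, all lower in astrocytes, against 32.1% of transcripts separate and lower and 22.5% separate and higher. Of these 5046 bright transcripts, 42.8% were separate and lower and 14.0% separate and higher. In bulk RNA, fewer cells of a type and less RNA per cell cannot be told apart. In the plot of all members by array the 8 neuron arrays form one high block, while the astrocyte arrays of slide row 2 are the lowest and the first astrocyte Klotho array lies nearest to the neurons.

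**Figure D1:**
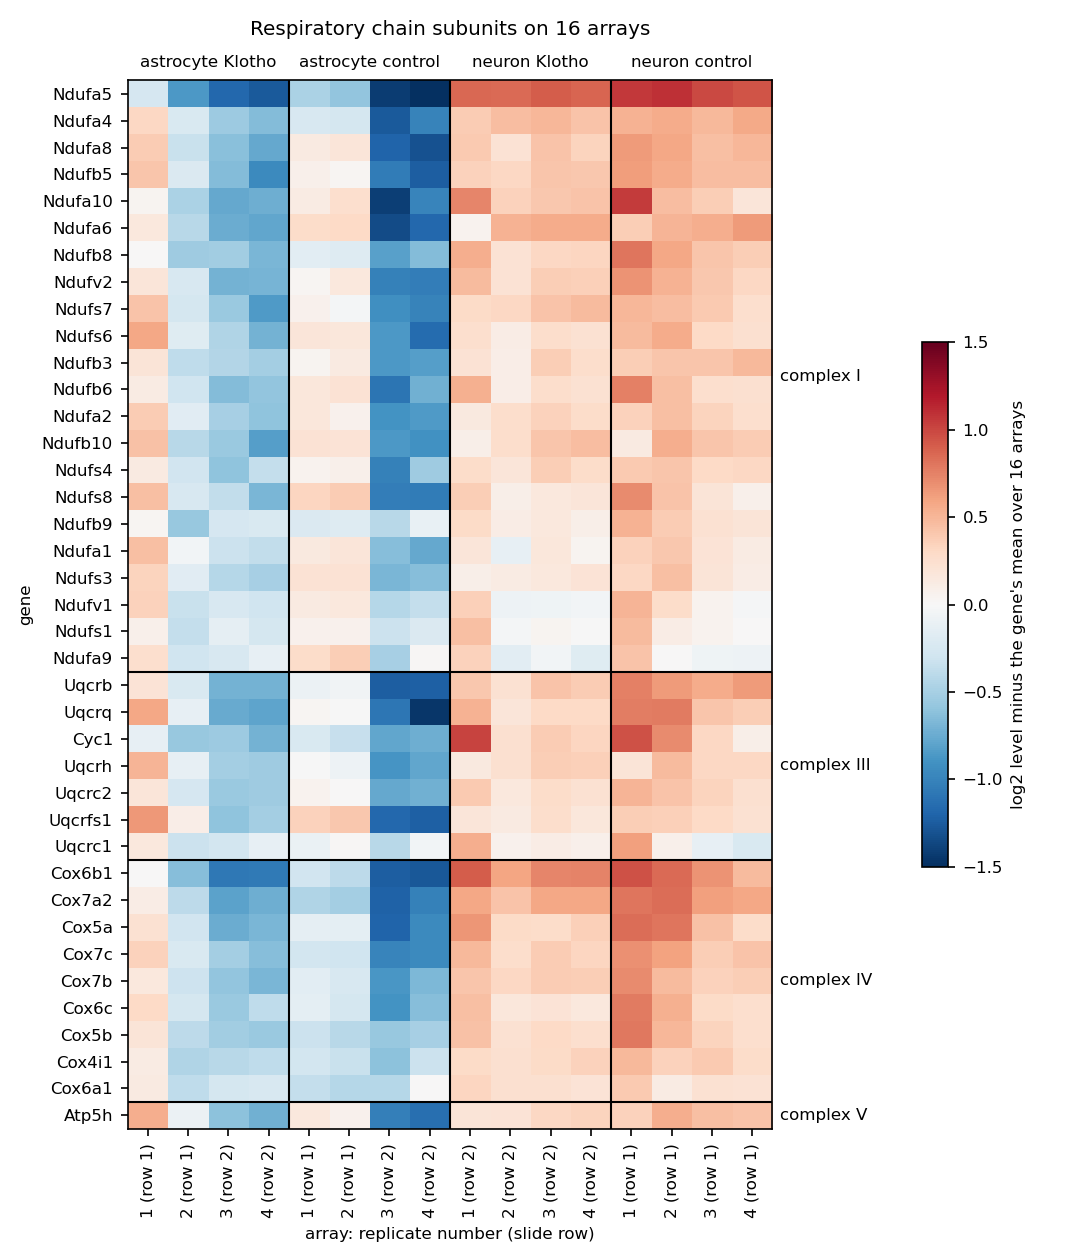
Level of each of the 39 subunits (down the page, by complex) on each of the 16 arrays (columns, with replicate number and slide row), as log2 level minus the gene's own mean over the 16 arrays; red is above and blue below that mean. Ndufa5 shows the widest split, between 3.52 and 4.81 on astrocyte arrays and between 5.91 and 6.15 on neuron arrays.

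In complex I, the entry point for NADH, 10 of 22 subunits fell in astrocytes (45.5%), a share closer than that of the other complexes to the 30.9% of all transcripts and 38.3% of bright transcripts that were lower. Ndufa5, an accessory subunit of the matrix arm, had levels of 4.59, 4.47, 3.63 and 3.52 in astrocyte control and 6.12, 6.15, 6.05 and 6.00 in neuron control arrays. Its means were 4.05 ± 0.55 in astrocytes and 6.08 ± 0.07 in neurons (SD, n = 4 each), a change of -2.03 ± 0.28 (SE, limma adjusted p = 0.00025) or 4.07-fold lower. Every astrocyte array lay more than a full log2 unit below every neuron array. Both Ndufa5 probes on the array gave a drop, of -2.03 for the brighter and -2.17 for the dimmer one.

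Ndufa4, which is listed with complex I but was later placed in complex IV, had 5.30, 5.28, 4.29 and 4.54 in astrocyte control and 6.07, 6.10, 6.03 and 6.11 in neuron control arrays (change -1.22 ± 0.26, limma adjusted p = 0.00383). Ndufb8, an accessory subunit of the membrane arm, had 5.71, 5.67, 5.05 and 5.21 in astrocyte control and 6.66, 6.44, 6.28 and 6.23 in neuron control arrays (-0.99 ± 0.22, limma adjusted p = 0.00452). Ndufb5, also of the membrane arm, had 4.56, 4.52, 3.43 and 3.24 in astrocyte control and 5.11, 5.04, 4.95 and 4.95 in neuron control arrays (-1.07 ± 0.33, limma adjusted p = 0.0213). None of these 3 genes had overlapping groups, and in each the astrocyte arrays split into a higher and a lower pair. The neuron arrays lay close together in Ndufa4 and Ndufb5 but ran from 6.23 to 6.66 in Ndufb8. Also lower were Ndufa8, Ndufb3, Ndufb9, Ndufs4, Ndufs7 and Ndufv2, with changes between -1.09 and -0.57.

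The 3 smallest changes in complex I were far from the threshold. Ndufs1, the iron-sulfur subunit of the NADH-oxidising module, had a change of -0.27, Ndufv1, which binds NADH and FMN, one of -0.33 and Ndufa9, a subunit near the quinone site, one of -0.03 ± 0.24 (limma adjusted p = 0.921). Ndufa9 levels were 4.25, 4.34, 3.48 and 3.99 in astrocyte control and 4.40, 3.99, 3.91 and 3.90 in neuron control arrays, which overlap. The other 9 complex I subunits did not pass the test and ranged between -1.03 for Ndufa10 and -0.49 for Ndufs3. Ndufs8, a matrix-arm subunit with iron-sulfur clusters, was among them, with 2.98, 3.04, 1.62 and 1.60 in astrocyte control and 3.37, 3.08, 2.85 and 2.73 in neuron control arrays. Ndufb9, an accessory subunit that passed, had 5.74, 5.77, 5.54 and 5.85 in astrocyte control and 6.49, 6.34, 6.18 and 6.16 in neuron control arrays, a small but separate difference.

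In complex III, which passes electrons from ubiquinol to cytochrome c, 5 of 7 subunits fell. Uqcrb, a small subunit that contributes to the quinone-binding region, had 5.04, 5.07, 3.90 and 3.91 in astrocyte control and 5.89, 5.77, 5.69 and 5.77 in neuron control arrays (-1.30 ± 0.32, limma adjusted p = 0.00731). Cyc1, the cytochrome c1 subunit, had 4.26, 4.14, 3.71 and 3.75 in astrocyte control and 5.44, 5.20, 4.80 and 4.58 in neuron control arrays (-1.04 ± 0.25, limma adjusted p = 0.00685). Neither gene overlapped between groups. Uqcrq, a small membrane subunit, had 6.17, 6.14, 5.06 and 4.68 in astrocyte control and 6.91, 6.92, 6.56 and 6.51 in neuron control arrays (-1.21 ± 0.36, limma adjusted p = 0.0188). Uqcrh, the hinge protein, had 6.29, 6.23, 5.42 and 5.52 in astrocyte control and 6.50, 6.78, 6.61 and 6.61 in neuron control arrays, and Uqcrc2, a core protein, had a change of -0.74, and both passed. Its partner core protein Uqcrc1 had 3.60, 3.71, 3.28 and 3.66 in astrocyte control and 4.31, 3.77, 3.57 and 3.47 in neuron control arrays, which overlap (-0.22 ± 0.23, limma adjusted p = 0.458). Uqcrfs1, the Rieske iron-sulfur protein, had a change of -0.73 ± 0.41 and did not pass either (limma adjusted p = 0.163).

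In complex IV, the cytochrome c oxidase that reduces oxygen, all 9 subunits fell, between -0.54 for Cox6a1 and -1.53 for Cox6b1. Cox6b1, a subunit on the intermembrane face, had 2.61, 2.50, 1.66 and 1.63 in astrocyte control and 3.85, 3.75, 3.56 and 3.37 in neuron control arrays (-1.53 ± 0.28, limma adjusted p = 0.00152, 2.89-fold lower). Cox7a2, the widely expressed form of subunit 7a, had 4.29, 4.24, 3.53 and 3.74 in astrocyte control and 5.55, 5.58, 5.36 and 5.33 in neuron control arrays (-1.51 ± 0.22, limma adjusted p = 0.000448). In both, the lowest neuron array stood well above the highest astrocyte array. Cox7c had 4.60, 4.58, 3.88 and 3.92 in astrocyte control and 5.57, 5.49, 5.25 and 5.31 in neuron control arrays (-1.15 ± 0.23, limma adjusted p = 0.00269). Cox5b, which carries a zinc site on the matrix side, had 5.39, 5.31, 5.15 and 5.22 in astrocyte control and 6.51, 6.22, 6.06 and 5.97 in neuron control arrays (-0.92 ± 0.19, limma adjusted p = 0.00285). Cox6a1, with both motifs in its promoter above, had 8.01, 7.94, 7.94 and 8.38 in astrocyte control and 8.76, 8.49, 8.59 and 8.58 in neuron control arrays (-0.54 ± 0.18, limma adjusted p = 0.0329). In both of these genes the 4 astrocyte arrays lay closer together than in Cox7c or Cox7a2, and below every neuron array.

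Complex V was represented by Atp5h, subunit d of the peripheral stalk. Its levels were 6.34, 6.25, 5.16 and 5.05 in astrocyte control and 6.53, 6.73, 6.64 and 6.61 in neuron control arrays, a change of -0.93 ± 0.32 (limma adjusted p = 0.0378). The first astrocyte pair lay only a little below the neuron arrays and the second pair far below.

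**Figure D2:**
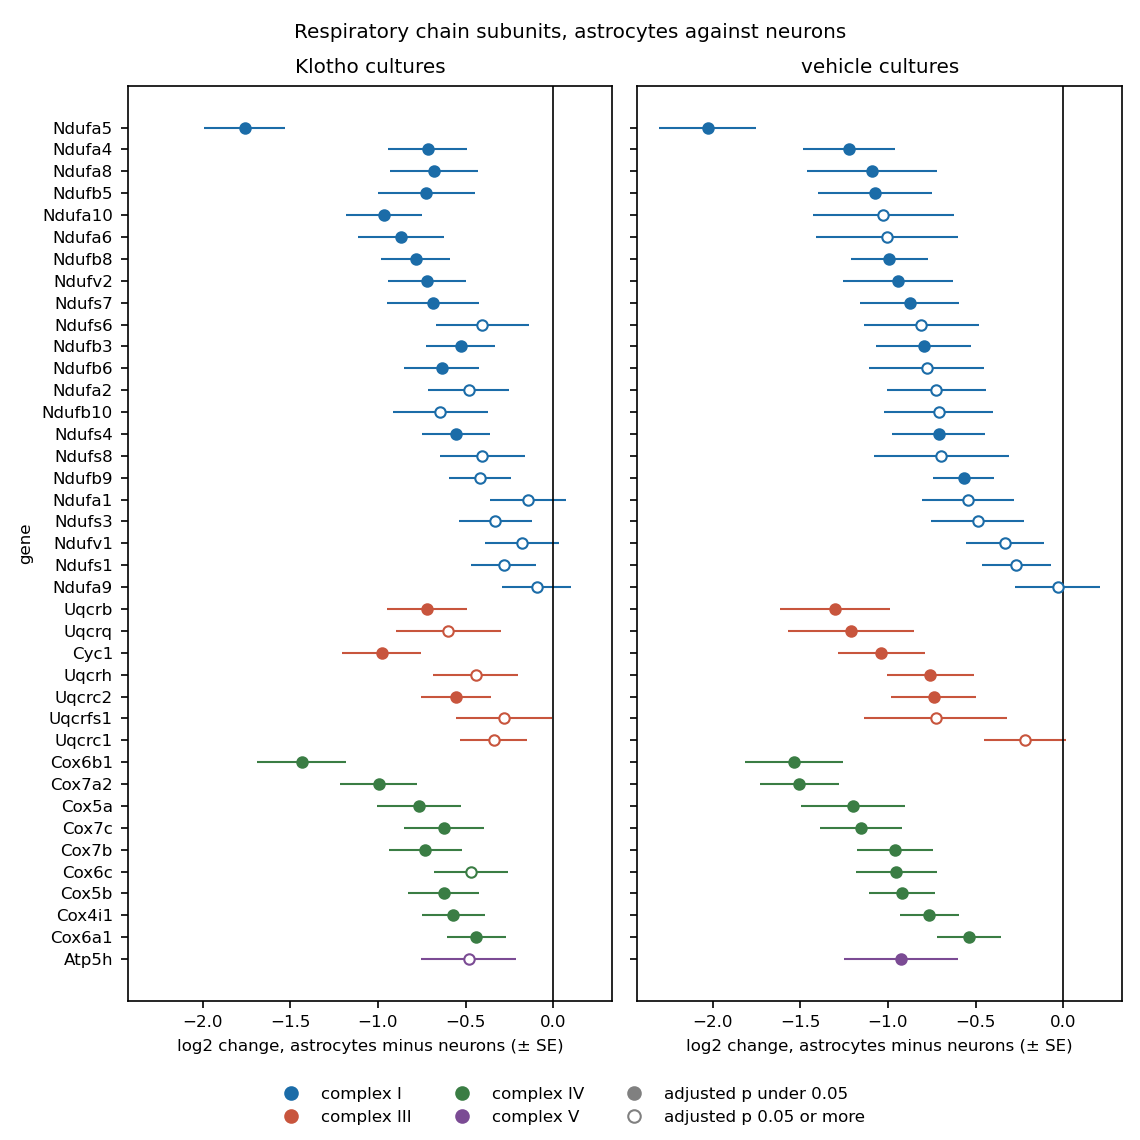
Log2 change of each subunit, astrocytes minus neurons, with its SE, in Klotho cultures (left) and vehicle cultures (right); filled points have an adjusted p under 0.05 in limma, and colours mark complexes. All points lie left of 0, and Ndufa5 (-1.76 with Klotho and -2.03 with vehicle) lies farthest from it.

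The same comparison in cultures with Klotho gave 23 subunits lower and 0 higher of 39, with a median of -0.60, against 36.2% of 24182 transcripts lower and 27.6% higher. At an unadjusted p under 0.05 there were 25, against 67.3% of transcripts. All 39 changes were negative, against 55.7% of transcripts with a median of -0.19 over all of them. Of the 23, 20 were also among the 25 of the vehicle cultures. The neuron arrays of both comparisons shared slide 1, while the astrocyte Klotho arrays were on slide 3 and the astrocyte control arrays on slide 2. Groups did not overlap for 16 subunits, all lower in astrocytes, against 33.4% of transcripts separate and lower and 26% separate and higher. Of the 5046 transcripts at least as bright as the dimmest subunit, 40.6% were lower, 65.6% had a negative change and 33.8% were separate and lower. Ndufa5 had 4.81, 4.20, 3.89 and 3.80 in astrocyte Klotho and 5.92, 5.91, 5.97 and 5.93 in neuron Klotho arrays (-1.76 ± 0.23, limma adjusted p = 0.000107). Cox6b1 had 2.90, 2.26, 1.82 and 1.84 in astrocyte Klotho and 3.81, 3.49, 3.62 and 3.64 in neuron Klotho arrays (-1.43 ± 0.25, limma adjusted p = 0.000744). Cox7a2 had 4.86, 4.35, 3.95 and 4.02 in astrocyte Klotho and 5.32, 5.18, 5.32 and 5.32 in neuron Klotho arrays (-0.995 ± 0.22, limma adjusted p = 0.00301). In all 3 genes the first astrocyte array was the highest of its group and still below each neuron array. Cyc1 changed by -0.98 ± 0.23 (limma adjusted p = 0.00379) and Ndufa10, an accessory subunit that had missed the threshold in vehicle cultures, by -0.96 ± 0.22 (limma adjusted p = 0.00338). Atp5h did not pass (-0.48 ± 0.27, limma adjusted p = 0.146).

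The number of subunits called depended on scaling, on single arrays and on slide position. In vehicle cultures it was 6 with the array median as the reference point and 10 with quantile normalization, with medians of -0.84 and -0.31. Of 25996 transcripts, 6320 and 7451 were lower in the same order, larger shares than those of the subunits. In Klotho cultures the subunit count was 9 and 10, with medians of -0.54 and -0.28. Of 24182 transcripts, 7876 and 8241 were lower, again larger shares. The deposited value table differs both in scaling and in the treatment of 4 astrocyte arrays, and it gave 31 in Klotho cultures (median -0.85) and 7 in vehicle cultures (median -0.42). Of all transcripts, 8028 of 24798 and 7840 of 25750 were lower there. The subunit share was thus the larger one in Klotho cultures and the smaller one in vehicle cultures. The table's assignment alone gave 29 (median -0.73) and 21 (median -0.71), and its scaling alone, with the scanner file assignment, gave 24 (median -0.65) and 21 (median -0.61) in the same order. With the assignment alone 8474 of 24798 and 8174 of 25750 transcripts were lower. With the scaling alone 8353 of 24182 and 7684 of 25996 were, all smaller shares than those of the subunits. By arrays left out, the count was 13 without neuron control 2, 15 without neuron control 1 or astrocyte control 3 and 16 without neuron control 3 in vehicle cultures. Transcripts lower were 6978 of 26102, 7451 of 26406, 7818 of 26203 and 6838 of 26112 in the same order, smaller shares than those of the subunits. In Klotho cultures the subunit count was 35 without astrocyte Klotho 1 and between 10 and 15 without any other 1 array. It was 10 without neuron Klotho 3 or astrocyte Klotho 4 and 12 without astrocyte Klotho 3. These are smaller shares than the 7849 of 24366, 8013 of 24194 and 8239 of 24321 transcripts lower there. Without astrocyte Klotho 1, 9744 of 24753 transcripts were lower, and there and with the remaining omissions the subunit share was the larger one. Ndufa5, Cox6b1 and Cox7a2 passed in both cultures under each of the 22 alternatives run, array omissions included.

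Subunit levels also differed within astrocytes by position on the slide. Each astrocyte slide held replicates 3 and 4 in row 2 and replicates 1 and 2 in row 1. With treatment in the model, 29 of 39 subunits were lower and 0 higher on row 2 than on row 1, with a median of -0.75, against 25.5% of 23958 transcripts lower and 21.7% higher. The change was negative for 38, against 52.2% of transcripts with a median of -0.05 over all of them, and 31 had an unadjusted p under 0.05, against 55.3%. Transcripts at least as bright as the dimmest subunit were lower in 52.8% of cases with a median of -0.61. Row values did not overlap for 30 subunits, all lower on row 2, against 23.7% of transcripts separate and lower and 18.1% separate and higher. Of the bright transcripts, 52.5% were separate and lower and 9.97% separate and higher. By complex, 17 of 22 fell in complex I, 5 of 7 in complex III, 6 of 9 in complex IV and Atp5h in complex V.

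Uqcrfs1 had 3.48, 3.57, 2.91 and 2.86 on the row 2 arrays and 4.73, 4.18, 4.43 and 4.49 on the row 1 arrays, each with the 2 Klotho arrays before the 2 control arrays (-1.25 ± 0.20, limma adjusted p = 0.00365). Uqcrq had 5.39, 5.35, 5.06 and 4.68 on row 2 and 6.73, 6.02, 6.17 and 6.14 on row 1 (-1.14 ± 0.20, limma adjusted p = 0.00407). Atp5h had 5.57, 5.47, 5.16 and 5.05 on row 2 and 6.73, 6.09, 6.34 and 6.25 on row 1 (-1.04 ± 0.18, limma adjusted p = 0.00409). The rows did not overlap in these genes, and the Klotho arrays of row 2 were the higher pair there. In complex I the smallest p belonged to Ndufb5 (-1.05 ± 0.19, limma adjusted p = 0.00448) and Ndufv2, an iron-sulfur subunit of the NADH module (-0.89 ± 0.17, limma adjusted p = 0.00500). Cox6b1 (-0.83 ± 0.17, limma adjusted p = 0.00693) and Cox5a, a nuclear subunit on the matrix side (-0.81 ± 0.17, limma adjusted p = 0.00668), led complex IV. Cox6a1 had 8.10, 8.13, 7.94 and 8.38 on row 2 and 8.50, 7.98, 8.01 and 7.94 on row 1, with a change of 0.03 ± 0.18, and Ndufb9 (-0.01), Uqcrc1 (-0.15), Cox4i1 (-0.20), Ndufs1 (-0.20), Cox5b (-0.30), Ndufa9 (-0.36), Cyc1 (-0.38), Ndufv1 (-0.41) and Ndufb8 (-0.45) did not pass either.

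**Figure D3:**
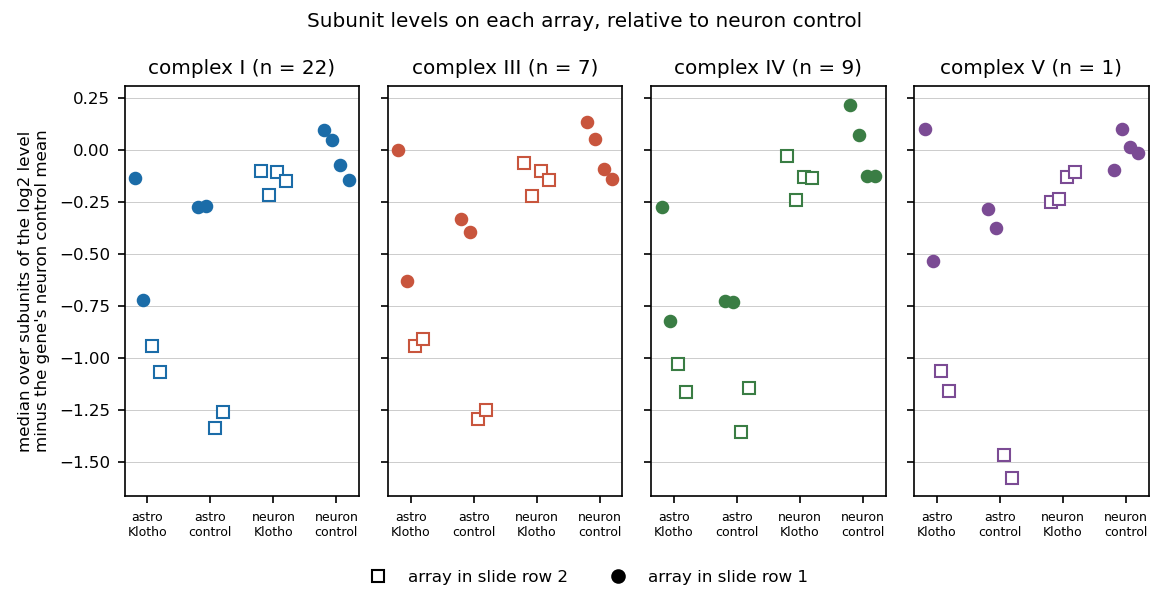
Median over the subunits of each complex of the log2 level minus the gene's mean in neuron control (vertical axis, shared) on each array; open squares are arrays in slide row 2 and filled circles arrays in row 1. For complex I the row 2 arrays of astrocyte control lie at -1.34 and -1.26 and the row 1 arrays at -0.28 and -0.27.

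The cell type difference was therefore also fitted with the arrays of 1 astrocyte row at a time. With the row 2 arrays of astrocyte control, 35 subunits were lower than in neuron control with a median of -1.27, and with the row 1 arrays 23 were lower with a median of -0.38. Of all transcripts, 10012 of 26646 and 10573 of 26462 were lower, smaller shares than those of the subunits. In Klotho cultures the row 2 arrays gave 35 subunits lower with a median of -0.90 and the row 1 arrays 6 lower with a median of -0.32. There 9883 of 25217 and 7857 of 24378 transcripts were lower, so with row 1 the subunit share was the smaller one. Ndufa5 changed by -2.50 with row 2 and -1.55 with row 1 of the control arrays, Cox7a2 by -1.82 and -1.19, and Cox6b1 by -1.99 and -1.08. The sums of 5 marker lists also did not overlap between the rows. The summed neuron list was 53.3 to 103 on row 2 and 31.8 to 50.3 on row 1, the oligodendrocyte lineage list 84.4 to 127 on row 2 and 31.4 to 82.7 on row 1, and the liver list 20.3 to 23.2 on row 2 and 9.50 to 18.3 on row 1. The microglia list was 169 to 242 on row 2 and 111 to 151 on row 1, and the astrocyte list 316 to 420 on row 2 and 454 to 530 on row 1. Single members did not all follow these sums. Of 9 neuron markers tested, 22.2% were higher and 33.3% lower on row 2. Of 3 liver genes 33.3% were higher, but 66.7% had a negative change. In lists of 10 each, 20% of oligodendrocyte and 10% of microglia genes were higher and 0% lower, and 30% of astrocyte genes were lower and 0% higher. The part of these lists in the row difference was not tested. With the scaling of the deposited value table the row median was -0.39, with 13 subunits lower when treatments followed the scanner files and 17 when they followed that table, whose assignment alone gave 28 lower and -0.75. Of 23958 transcripts, 5193, 5128 and 6010 were lower in the same order, smaller shares than those of the subunits. With quantile normalization the row median was -0.20 with 11 lower and 1 higher, where 5707 of 23958 transcripts were lower and 5173 higher. Over the 4 astrocyte arrays with the same treatment in both assignments it was -0.65, and 0 subunits passed in limma, as did 0 transcripts, of which 4595 of 24989 had an unadjusted p under 0.05.

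No subunit passed the test for Klotho in either cell type, by limma at an adjusted p under 0.05. In neurons 0 of 39 were called, where 0.15% of 24705 transcripts were lower and 0% higher, and 1 subunit had an unadjusted p under 0.05, against 4.3% of transcripts. The changes were negative for 36 of 39 subunits with a median of -0.13; over all transcripts 57% were negative with a median of -0.03, and over the 5046 bright transcripts 71.2% with a median of -0.07. All 22 complex I subunits were among the negative ones. Groups did not overlap for 6 subunits, all lower with Klotho, namely Ndufa5, Ndufa8, Ndufb5, Uqcrb, Cox7a2 and Atp5h, against 2.83% of transcripts separate and lower and 1.38% separate and higher. Of the bright transcripts, 5.03% were separate and lower and 0.892% separate and higher. Uqcrb had 5.54, 5.36, 5.56 and 5.52 in neuron Klotho and 5.89, 5.77, 5.69 and 5.77 in neuron control arrays (-0.29 ± 0.10, limma adjusted p = 0.988). Ndufa8, which sits on the intermembrane side of complex I, had 3.71, 3.53, 3.74 and 3.64 in neuron Klotho and 3.95, 3.89, 3.76 and 3.82 in neuron control arrays (-0.20 ± 0.10, limma adjusted p = 0.988). In both genes the groups were separate but close.

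The largest positive change in neurons was that of Uqcrc1 (0.11 ± 0.20), and the largest negative ones in complexes I, IV and V were those of Ndufa1 (-0.20 ± 0.11), Cox6c (-0.22 ± 0.14) and Atp5h (-0.18 ± 0.09). All neuron Klotho arrays lay in row 2 and all neuron control arrays in row 1 of 1 slide, so treatment and row cannot be told apart in neurons. Spots well above background made up 57.9% to 62.0% on neuron Klotho and 65.0% to 67.3% on neuron control arrays, which do not overlap, and the part of this difference in the subunit values was not tested. Genes of the liver list also differed, with 4 of 9 tested lower. The list summed to 5.63 to 6.79 in neuron Klotho and 10.1 to 16.3 in neuron control arrays. It summed to 18.0 to 23.2 in astrocyte control arrays, where 5 of its 10 genes were above background on no array. The sum can thus rest on few genes and is not a measure of liver RNA alone. The part of these genes in the subunit values was not tested. In the deposited value table the neuron median was 0.17, with 39 of 39 subunits not below 0, so the direction depends on the scaling.

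In astrocytes 0 of 39 subunits were called, as were 0 of 23564 transcripts (0%), of which 3.77% had an unadjusted p under 0.05; 0 subunits had one. The change was positive for 33 subunits with a median of 0.12, against 49% of all transcripts with a median of -0.01 over all of them, and 68.1% of the bright transcripts with a median of 0.11. Ndufa4 had 5.86, 5.32, 5.00 and 4.89 in astrocyte Klotho and 5.30, 5.28, 4.29 and 4.54 in astrocyte control arrays (0.42 ± 0.32, limma adjusted p = 1.00). Cox7c had 5.23, 4.65, 4.37 and 4.24 in astrocyte Klotho and 4.60, 4.58, 3.88 and 3.92 in astrocyte control arrays (0.37 ± 0.30, limma adjusted p = 1.00). The groups overlap in both, and the first Klotho array is the highest. Groups overlapped for all 39 subunits, where 1.1% of transcripts were higher and 1.44% lower without overlap.

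By the scanner files all astrocyte Klotho arrays were on slide 3 and all astrocyte control arrays on slide 2, so treatment and slide cannot be told apart there, nor in the interaction below. Within row 2 the astrocyte median was 0.30 and within row 1 it was -0.01. By the treatments of the deposited value table the median was -0.13 with 34 of 39 subunits negative, so the direction depends on the assignment. In that assignment all astrocyte Klotho arrays lay in slide column 4 and all astrocyte control arrays in slide column 3. Treatment and slide column therefore cannot be told apart there. With that table's values as well the median was -0.24 with 39 of 39 negative, and with quantile normalization by the scanner files it was -0.0091 with 22 negative. Without Klotho array 1 it was -0.06, without control array 3 it was -0.02 and without control array 4 it was -0.01, and over the 4 arrays with the same treatment in both assignments it was -0.02. A test of whether the Klotho effect differed between astrocytes and neurons, an interaction over all 16 arrays, called 0 of 39 subunits, where 0.0804% of 26111 transcripts were higher and 0.00766% lower; 0 subunits had an unadjusted p under 0.05, against 5.26% of transcripts. The interaction median was 0.23 with 36 subunits positive under the scanner files, against 52.8% of all transcripts and 73.4% of the bright ones. This median was -0.0098 under the value table assignment, -0.073 with the value table's scaling alone and -0.43 with both.

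**Figure D4:**
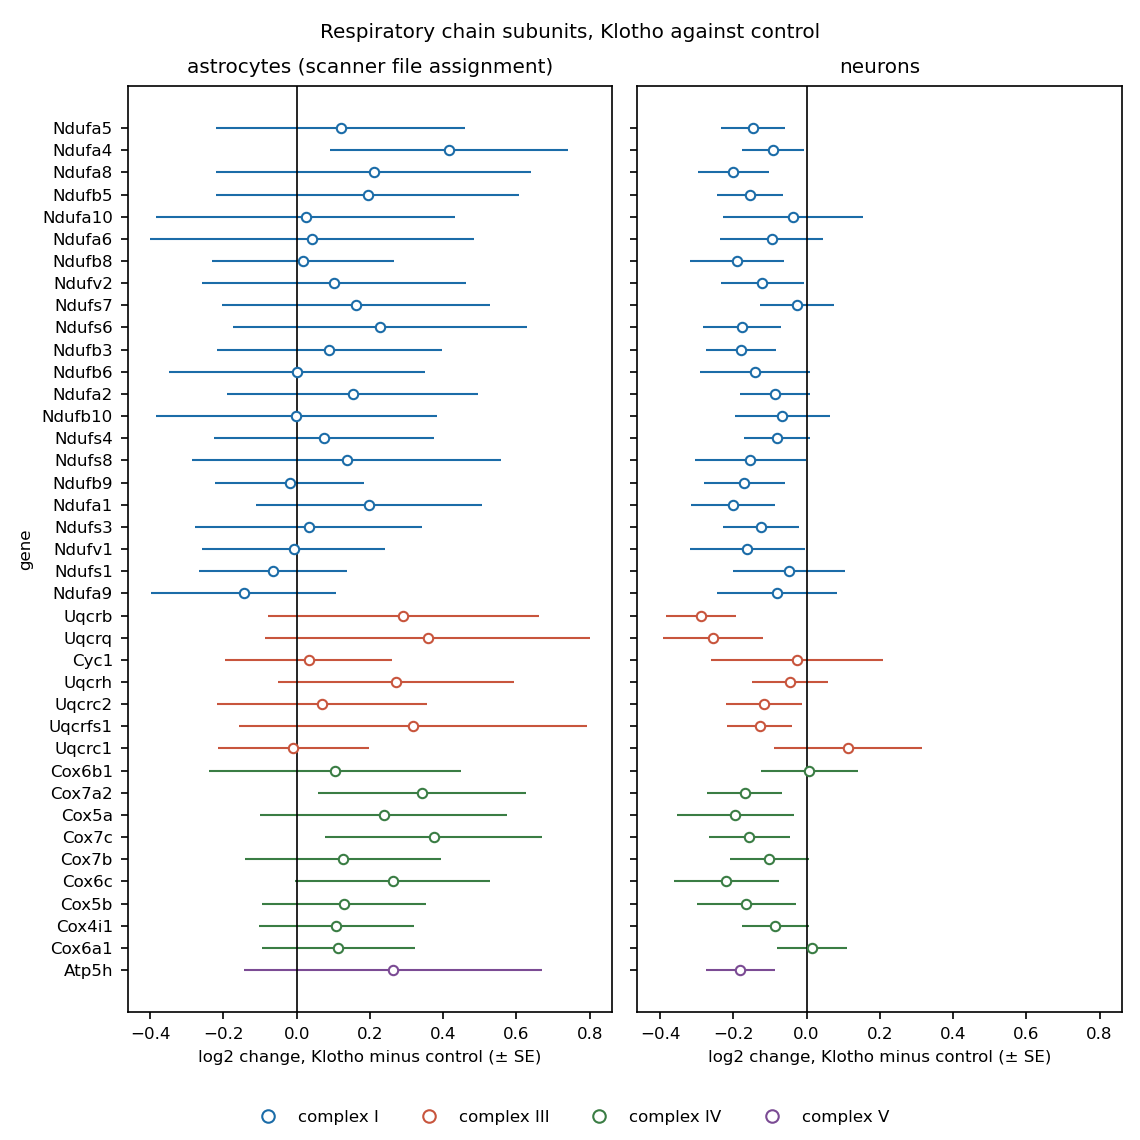
Log2 change of each subunit with Klotho, with its SE, in astrocytes by the scanner file assignment (left) and in neurons (right); colours mark complexes and no point has an adjusted p under 0.05. The neuron points lie between -0.29 and 0.11 and the astrocyte points between -0.14 and 0.42, with wider errors in astrocytes.

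Tissue isoforms of complex IV went in both directions between the cell types. Several small complex IV subunits have a second gene that is best known from heart and skeletal muscle, lung or testis. Of 8 isoform genes listed with them, 4 rose and 3 fell in astrocyte control relative to neuron control arrays, where 22.3% of all transcripts were higher and 30.9% lower. Their values come from genes that are not among the 39. Cox6b2, known from testis, had 3.45, 3.38, 3.29 and 3.62 in astrocyte control and -0.30, 0.31, 0.38 and 0.23 in neuron control arrays (3.28 ± 0.21, limma adjusted p = 1.85e-06, 9.71-fold higher), while its counterpart Cox6b1 was lower in astrocytes. Their promoters are shown above, and only that of Cox6b1 holds the ETS core, but a link between motif and level was not tested. Cox8c, also known from testis, was above background on no neuron control array and had -2.61, -2.64, -3.37 and -2.88 in astrocyte control arrays, at least 10.7-fold higher (limma adjusted p = 6.42e-06). The bound puts the dim group on each array at the lowest level that counts as well above background there, or at the gene's own level where that is higher.

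Cox7a1, the heart and muscle form of subunit 7a, had 2.18, 2.22, 1.20 and 1.18 in astrocyte control and 0.28, 0.86, 1.07 and 1.03 in neuron control arrays (0.89 ± 0.32, limma adjusted p = 0.0429), opposite to Cox7a2. Cox4i2, an oxygen-responsive form best known from lung, had -1.80, -1.81, -1.26 and -1.53 in astrocyte control and -1.89, -2.46, -2.25 and -2.29 in neuron control arrays (0.62 ± 0.21, limma adjusted p = 0.0338). Neither gene overlapped between the groups. In Cox7a1 the first astrocyte pair lay more than a full log2 unit above the highest neuron array and the second pair just above it, and in Cox4i2 the groups lay close together.

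Cox6a2, the heart and muscle form of subunit 6a, went the other way. It had -3.71, -3.48, -3.13 and -3.23 in astrocyte control and 1.84, 0.55, 0.64 and 0.40 in neuron control arrays (-4.24 ± 0.33, limma adjusted p = 6.88e-06, 18.9-fold lower), and the first neuron array was the highest. Cox8b, a heart and muscle form whose promoter is shown above, had -8.31, -7.49, -5.20 and -5.64 in astrocyte control and -3.78, -0.05, 0.01 and -0.10 in neuron control arrays (-5.68 ± 0.99, limma adjusted p = 0.0012). It was above background on 2 of 4 astrocyte control arrays, and the first neuron array lay far below the other 3. Cox7b2 was above background on no astrocyte control array and had -4.95, -4.94, -5.24 and -5.52 in neuron control arrays, at least 2.23-fold lower in astrocytes (limma adjusted p = 1.12e-05). Ndufa4l2, a hypoxia-induced relative of Ndufa4, had -3.64, -3.56, -3.95 and -3.40 in astrocyte control and -3.55, -2.96, -2.77 and -2.87 in neuron control arrays (-0.60 ± 0.23, limma adjusted p = 0.0543).

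With Klotho in both cell types the differences were 2.64 ± 0.25 for Cox6b2, 1.27 ± 0.37 for Cox7a1, -4.23 ± 0.36 for Cox6a2 and -3.48 ± 0.81 for Cox8b, all with adjusted p under 0.05 in limma. The first replicate of both neuron groups stood apart in these genes: Cox8b was -4.04, -0.26, -0.25 and 0.03 in neuron Klotho arrays, and Cox6a2 was 1.99, 0.39, 0.52 and 0.45. Cox8c was at least 4.18-fold higher in astrocyte Klotho than in neuron Klotho arrays. Cox4i2, Cox7b2 and Ndufa4l2 were not called between these groups. Relative to its neuron control mean, Cox4i2 had 0.84, 0.23, 0.48 and 0.29 in astrocyte Klotho arrays. In neuron Klotho arrays it had 0.41, 0.28, 0.18 and 0.05, which overlap. No isoform was called with Klotho in neurons or astrocytes (0 of 7 tested in each).

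**Figure D5:**
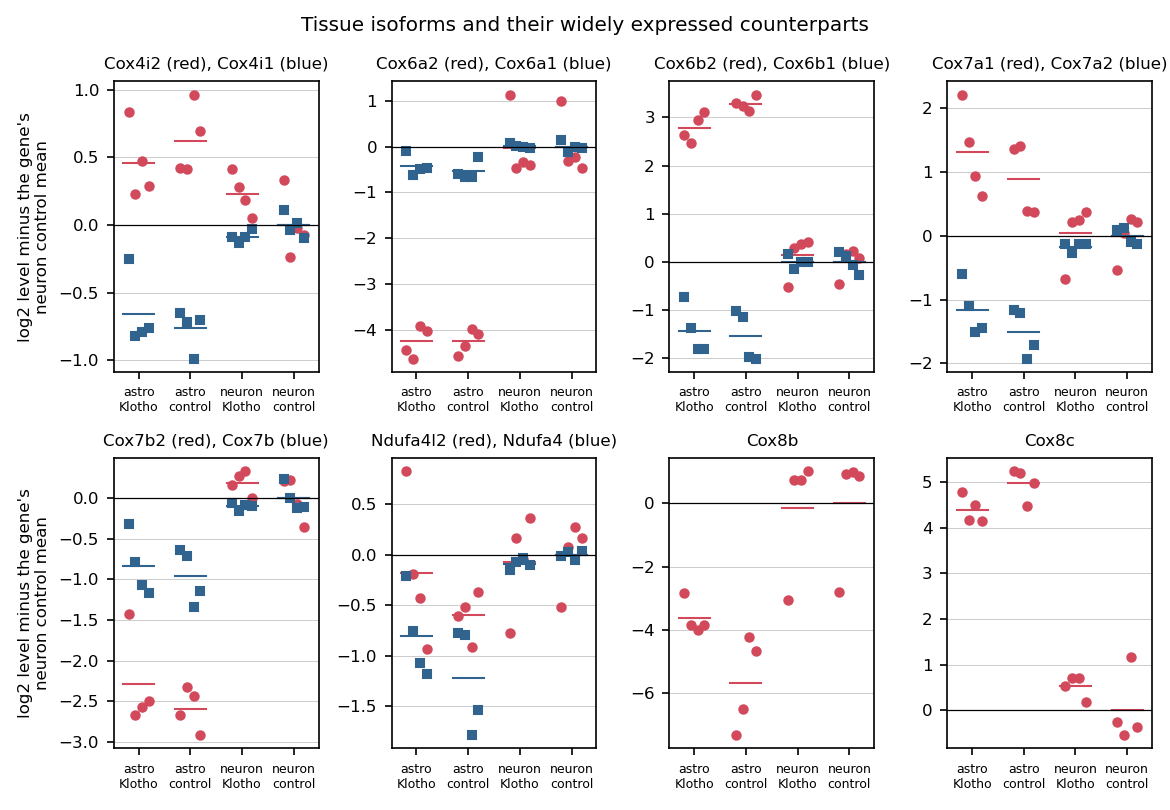
Log2 level minus the gene's own mean in neuron control, on each array of the 4 groups, for 8 tissue isoforms (red circles) and, where listed, the widely expressed counterpart (blue squares); short lines are group means. Cox6b2 and Cox6b1 move in opposite directions in astrocytes (3.28 and -1.53 in vehicle cultures).

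The rest of the oxidative phosphorylation machinery was measured beside the 39 subunits, and its counts stand against the 30.9% of all transcripts (38.3% of bright ones) that were lower and the 22.3% (12.9% of bright ones) that were higher. Of the other ATP synthase subunits 10 of 15 (66.7%) fell in astrocyte control relative to neuron control arrays and 0 rose, with a median of -1.07; the largest drops were those of Atpif1, which inhibits ATP hydrolysis by the synthase (-1.85 ± 0.30, limma adjusted p = 0.000732), and Atp5g1, a c-ring gene (-1.56 ± 0.31, limma adjusted p = 0.00248). Other complex I subunits fell in 8 of 15 cases (53.3%), led by Ndufb2 (-1.64 ± 0.30) and Ndufa11 (-1.62 ± 0.34). Uqcr10, Uqcr11 and Cycs, which encodes cytochrome c, all fell (3 of 3), as did Cox8a of complex IV (1 of 2). Complex II, which is also part of the citric acid cycle, had no member called (0 of 4): the change was 0.42 for Sdha, -0.70 for Sdhb, -0.23 for Sdhc and -1.22 for Sdhd.

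Of 35 assembly factors tested, 11 were lower (31.4%) and 3 higher (8.57%), so the share lower was near that of all transcripts. Ttc19, needed for complex III, fell the most (-2.09 ± 0.32, limma adjusted p = 0.000546), followed in p by Ndufaf5 of complex I assembly (-1.22 ± 0.24) and Cox11, a copper chaperone for complex IV (-1.34 ± 0.27). Of 16 regulators of mitochondrial gene expression 4 fell (25.0%), below the share of all transcripts, and 0 rose: Esrrg, an orphan nuclear receptor (-2.26 ± 0.42), Ppargc1b, a coactivator (-1.60 ± 0.42), Gabpb1, a subunit of the ETS factor GABP (-0.77 ± 0.18), and Twnk, the mitochondrial DNA helicase (-0.50 ± 0.17). Citric acid cycle genes fell in 4 of 12 cases (33.3%), with the citrate synthase gene Cs at -1.19, and import and outer membrane genes in 4 of 11 (36.4%), with Tomm70a at -2.81, both near the share of all transcripts. Glycolysis genes had 2 higher, Hk2 (3.06 ± 0.26, limma adjusted p = 1.05e-05) and Ldhb (1.46 ± 0.31), and 3 lower, among them the neuronal enolase Eno2 (-1.52 ± 0.32) and Ldha (-1.12 ± 0.31), of 17. The median change of the glycolysis list was -0.26, close to the -0.22 of all transcripts.

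The same lists were tested between the astrocyte rows, where 25.5% of all transcripts and 52.8% of bright ones were lower on row 2 and 21.7% of all transcripts were higher. The other ATP synthase subunits were lower on row 2 in 15 of 15 cases, the other complex I subunits in 15 of 15, the assembly factors in 26 of 35 (74.3%), the import genes in 9 of 11 (81.8%) and the citric acid cycle genes in 8 of 12 (66.7%). Of the glycolysis genes 8 of 17 were lower (47.1%), under the share of bright transcripts. Complex II had 3 of 4 members lower on row 2. Regulators of mitochondrial gene expression went both ways there, with 4 higher and 4 lower of 16 (25.0% each), near the shares of all transcripts; Ppargc1b rose by 1.05 ± 0.19 and Tfam, the mitochondrial transcription factor, fell by 1.32 ± 0.26. Klotho changed no member of any of these lists in neurons or in astrocytes at an adjusted p under 0.05 in limma. Inflammatory genes had a median change of 4.33 with Klotho in astrocytes by the scanner file assignment. By limma 10 of 12 had an unadjusted p under 0.05, against 3.77% of transcripts, although 0 passed adjustment. Their summed level was 420 to 2024 in astrocyte Klotho and 389 to 464 in astrocyte control arrays, ranges that overlap. The deposited value table gives 4 of the 8 astrocyte arrays the other treatment, and the change of these genes under it is not given here. The part of the inflammatory genes in the subunit values was not tested.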

How the data were processed

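Each array file is one Agilent scanner output, and the processed intensity of each spot was made by the authors' run of Feature Extraction, which corrects the background, per the file headers. The deposited value table holds, per array, a score that matched the z-score of the log2 scanner signal within 0.005. Processed intensity was taken as log2, averaged over the spots of a probe without outlier flags, and centred on each array's 75th percentile. Probes were named through their RefSeq accession (28331 of 55681 probes, 21368 genes), and each gene was represented by its brightest probe. Transcripts entered a test when every array in one or both compared groups measured them well above background. Tests were limma fits (version 3.58.1, R 4.3.3) over all such transcripts with Benjamini-Hochberg adjustment at 0.05, between the groups of each comparison alone, over all 16 arrays for the interaction, and over the 8 astrocyte arrays with treatment as a term for slide row. The fitting code was tested on simulated data. Sequences and chromosome positions are from RefSeq.

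The members and gene lists were chosen with earlier results of these data known. Named with full statistics were, per comparison, up to 3 subunits per complex with the smallest p and the extremes of each complex, and of other lists up to 3 genes with the smallest p and each tissue isoform. Per-array values were given for up to 4 subunits per complex in vehicle cultures, up to 2 in other comparisons, and the brightest and dimmest of each complex; not every name the rule allows is printed. Klotho and control arrays of the same replicate number resembled each other in astrocytes and only in part in neurons. The correlation of same-numbered deviations from the group mean was 0.175 to 0.778 in neurons and 0.181 to 0.724 in astrocytes. In astrocytes each number had its own number as best partner, but in neurons replicates 2 and 4 both had number 3. Same-numbered astrocyte arrays also shared slide row and slide column, and same-numbered neuron arrays shared the column. Matched cultures and slide position therefore cannot be told apart. Alternatives were the array median, quantile normalization, normexp with offset 50 on the median signal (the mean signal was not used here), other filters, all probes, the value table, the replicate block and each array left out; single slide rows, the arrays with one treatment in both assignments and the value table's scaling with the scanner file assignment were added after seeing the data.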

Additional observations from a re-analysis of the deposited data

Results flagged for a closer look

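In 18 of the 188 groups of 4 arrays checked (9.57%), over the 39 subunits and 8 isoforms, 1 array lay far from the other 3; chance alone does this in about 1 group in 20. Most of them were the first replicate. On neuron Klotho array 1, Ndufa6 was low at 4.36 (other arrays 4.84 to 4.87), and Ndufs1 was high at 5.24 (4.76 to 4.83), as were Ndufv1 at 6.03 (5.59 to 5.63), Uqcrc1 at 4.24 (3.76 to 3.80) and Cox6c at 6.39 (6.10 to 6.15). Among the isoforms on that array, Cox6a2 was high at 1.99 (0.39 to 0.52), while Cox6b2 at -0.36 (0.45 to 0.57), Cox7a1 at 0.12 and Cox8b at -4.04 (-0.26 to 0.03) were low. Neuron control array 1 showed the same for Cox6a2, high at 1.84 (0.40 to 0.64), and Cox8b, low at -3.78 (-0.10 to 0.01). On astrocyte Klotho array 1, Ndufv1 at 6.02 (5.33 to 5.43), Cox4i1 at 7.14 (6.57 to 6.63), Cox7b2 at -6.59 (-7.83 to -7.66) and Cox8b at -3.81 (-4.97 to -4.83) were high. The others were Cox7a2 on neuron Klotho array 2, low at 5.18 against 5.32 on each of the other 3, Cox6a1 on astrocyte control array 4, high at 8.38 (7.94 to 8.01), and Cox8c on neuron control array 3, high at -6.69 (-8.39 to -8.10). All values are log2 levels relative to the array's 75th percentile. Their causes were not tested.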

How the results depend on the processing

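No subunit passed the test for Klotho, or for the interaction, under any alternative run, while medians changed sign: in the value table to 0.17 in neurons, -0.24 in astrocytes (39 of 39 negative) and -0.43 for the interaction, with quantile normalization to -0.0091 in astrocytes (22 negative), and under the value table assignment alone to -0.13 in astrocytes and -0.0098 for the interaction. With the array median, 6 subunits were lower in vehicle cultures and 9 in Klotho cultures, and the row median was -1.19 where the median of all transcripts was -0.49. Of all transcripts, 6320 of 25996 and 7876 of 24182 were lower in these cultures, larger shares than those of the subunits. With quantile normalization 10 subunits were lower in each kind of culture (medians -0.31 with vehicle and -0.28 with Klotho), and between rows 11 were lower and 1 higher (median -0.20). Transcripts lower were 7451 of 25996 with vehicle and 8241 of 24182 with Klotho, larger shares, and 5707 of 23958 between rows, a smaller one. With the deposited score table, which changes scaling and the treatment of 4 astrocyte arrays together, 7 subunits were lower in vehicle cultures (median -0.42) and 17 between rows (median -0.39). Transcripts lower were 7840 of 25750 in vehicle cultures, a larger share, and 5128 of 23958 between rows, a smaller one. The score table's assignment alone gave 21 in vehicle and 29 in Klotho cultures, and its scaling alone, added after seeing the data, gave 21 in vehicle cultures, 24 in Klotho cultures, 13 between rows (median -0.39) and -0.073 for the interaction median. With both, Cox6a1 had a change of 0.031 in vehicle cultures (limma adjusted p = 0.920), opposite in sign to its reported value. With astrocyte row 2 alone the medians were -1.27 in vehicle and -0.90 in Klotho cultures, with 35 lower in the Klotho cultures. With row 1 alone the vehicle median was -0.38 and 6 were lower in Klotho cultures. In Klotho cultures 9883 of 25217 transcripts were lower with row 2, a smaller share, and 7857 of 24378 with row 1, a larger one. Over the arrays with one treatment in both assignments, 16 were lower in vehicle cultures and 0 between rows by limma, where 0 of 24989 transcripts passed and 4595 had an unadjusted p under 0.05. In those vehicle cultures 6638 of 26127 transcripts were lower, a smaller share than that of the subunits. Leaving out 1 array gave 13 to 30 lower in vehicle cultures (13 without neuron control 2, 15 without neuron control 1 or astrocyte control 3, 16 without neuron control 3) and 10 to 35 in Klotho cultures (10 without neuron Klotho 3 or astrocyte Klotho 4, 35 without astrocyte Klotho 1). Without neuron Klotho 3 or astrocyte Klotho 4, 7849 of 24366 and 8013 of 24194 transcripts were lower, larger shares than 10 of 39. Without astrocyte Klotho 1 it was 9744 of 24753 and without neuron control 2 it was 6978 of 26102, smaller shares than those of the subunits. With the replicate block the count was 22 in vehicle and 16 in Klotho cultures, the Klotho counts stayed at 0 with medians of -0.13 in neurons and 0.12 in astrocytes, and the row count with slide column as the block was 29; the block changed no direction. Transcripts lower with these blocks were 7503 of 25996 in vehicle cultures, 8009 of 24182 in Klotho cultures and 6315 of 23958 between rows. All are smaller shares than those of the subunits. Same-numbered astrocyte and neuron arrays were not paired (correlations -0.151 to 0.263). The causes of these changes were not tested. The number of arrays and the signal over background limit what could be detected.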
